A study of Mus musculus with 10 samples.

Results

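The genes described here are 40 mouse genes of ribosome biogenesis and the nucleolus that are known as targets of MYC, taken by symbol from an RNA sequencing table of liver tumors. All 40 were found among the 52459 genes of the table, and all 40 were among the 12146 genes tested, which had at least 0.5 FPKM (fragments scaled to the length of the gene model and to the reads of the library) in at least 5 libraries. RNA was sequenced from 5 MYC/Twist1-HCC and 5 MYC-HCC, hepatocellular carcinomas of the mouse liver. MYC/Twist1-HCC came from LAP-tTA/TRE-MYC/TRE-Twist1/Luc mice, which express MYC together with Twist1 and luciferase, and MYC-HCC from LAP-tTA/TRE-MYC mice, which express MYC alone. Both kinds of mice were FVB/N and carried the tetracycline transactivator under the liver-enriched LAP promoter, with the transgenes switched on by withdrawal of doxycycline in adult animals. Luciferase was present in one group only, so it cannot be told apart from Twist1. The sex and age of the animals at the time of RNA harvest were not given in the sources used here. Nothing in the labels says which tumors came from separate animals, so the p-values cover only how far these samples scatter.

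MYC is a transcription factor that binds DNA with its partner MAX, most often at the E-box CACGTG, and genes of ribosome production are among its best known targets. Ribosomes are built in the nucleolus, where RNA polymerase I transcribes a long precursor of the ribosomal RNAs. Small nucleolar ribonucleoproteins (snoRNPs) then modify this precursor, and assembly factors cut and fold it into the small 40S and the large 60S subunit.

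In short, 39 of the 40 genes had lower mean log2 levels in MYC/Twist1-HCC than in MYC-HCC, with a median log2 difference of -0.51, against -0.04 over all genes tested. Over all 10 libraries 0 of the 40 passed limma's test at an adjusted p below 0.05 in either direction (background 0% lower and 0.0247% higher, or 3 genes). At an unadjusted p below 0.05, 25 were lower (background 8.51%) and 0 higher (background 7.83%). The count of 25 depends on single libraries. It was 38 without library 4 of MYC-HCC (background 18.6%) and 11 without replicate 5 of MYC/Twist1-HCC (background 5.48%). Without MYC/Twist1-HCC replicates 1 to 4 it was 14, 17, 23 and 30 (backgrounds 5.40%, 7.45%, 9.71% and 9.22%). Without MYC-HCC libraries 1, 2, 3 and 5 it was 14, 12, 15 and 14 (backgrounds 5.37%, 6.08%, 5.84% and 6.60%). One library of MYC-HCC, library 4, stood apart from the other 4. Without it the median was -0.63, and 13 of the 40 genes fell (background 4.77%) while 0 rose (background 4.30%). Rcl1 was the exception in direction, and it was chosen for description after its values were seen.

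The MYC-HCC columns of the table share one heading, so these libraries are numbered here in column order. The depth, estimated from short genes, was 21.1 to 23.8 M reads in MYC/Twist1-HCC and 19.2 to 23.5 M reads in MYC-HCC. Twist1 was at 2.56, 26.1, 77.2, 1.62 and 2.21 FPKM in replicates 1 to 5 of MYC/Twist1-HCC and at 0 to 0.29 FPKM in MYC-HCC, with no overlap. MYC-HCC library 4 held 3.11 FPKM of Afp, a fetal liver protein, and 2444 FPKM of Car3, an enzyme of adult hepatocytes and other tissues. In the other 4 MYC-HCC libraries Afp was at 736 to 1479 FPKM and Car3 at 4.46 to 30.3 FPKM, so library 4 had by far the least Afp and the most Car3 of its group. The list of 5 oncofetal markers that holds Afp did not follow it. Its sum was 18382 to 27175 FPKM in MYC/Twist1-HCC and 8030 to 21294 FPKM in MYC-HCC, where library 4 had the highest sum and the other 4 reached at most 13626 FPKM, and all 5 markers had higher mean log2 levels in MYC/Twist1-HCC. Library 4 carries the label of the other 4, and whether its tissue was tumor to the same extent cannot be told from the sources used here. Results are therefore given with and without it. Cell markers also moved with the groups, although 0 of the markers of any cell type passed the test. The summed level of 13 hepatocyte markers was 4693 to 12963 FPKM in MYC/Twist1-HCC and 2018 to 10754 FPKM in MYC-HCC, where library 4 had the highest sum and the other 4 reached at most 5159 FPKM (10 of 13 higher in mean log2 level in MYC/Twist1-HCC). Summed over 8 neutrophil markers the level was 14.5 to 642 FPKM in MYC/Twist1-HCC and 2.21 to 8.32 FPKM in MYC-HCC, and over 7 erythroid markers 171 to 2263 FPKM and 38.8 to 139.9 FPKM in the same order of groups. For both lists the groups did not overlap, and all 6 neutrophil and all 6 erythroid markers tested had higher mean log2 levels in MYC/Twist1-HCC. Macrophage markers overlapped, at 334 to 1104 FPKM in MYC/Twist1-HCC and 244 to 892 FPKM in MYC-HCC. Library 4 had the highest sums of all libraries for endothelial cells (61.2 FPKM) and for stellate cells and fibroblasts (67.9 FPKM). The other 4 MYC-HCC libraries had 9.05 to 15 and 16.6 to 42.9 FPKM. Library 4 had the lowest sums of its group for macrophages (244 FPKM), cholangiocytes (10.1 FPKM) and granulocyte precursors (0.46 FPKM). The other 4 had 440 to 892, 19.4 to 51.7 and 6.9 to 20.2 FPKM. The part of these cells in the differences of the 40 genes was not tested. In bulk tumors fewer cells of a type and less RNA per cell cannot be told apart.

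Promoter sequence was examined for the E-box as a description. It was not itself used to choose the genes, but they are known targets of MYC. A higher share of CACGTG can therefore come with that choice. RefSeq windows (GRCm38.p6) from 250 bases before to 50 bases after the start site were on hand for 35 of the 40 genes, all but Bop1, Rrp12, Npm1, Fbl and Rrs1, and a gene with several start sites was counted once. CACGTG, which reads the same on both strands, was found in 9 of the 35 (25.7%), against 17.8% of 101 promoters of other ribosome biogenesis genes, 12.1% of genes tested and 8.09% of all genes with a window. The related sequence CACGCG, or CGCGTG on the other strand, was found in 11 (31.4%), against 31.7%, 20.0% and 10.5%. CAGATG or CATCTG, a form of E-box that Twist1 dimers bind, was found in 3 (8.57%), against 9.90%, 13.1% and 19.2%. Of 11 CACGTG matches, 9 began at the first base transcribed or after it, and their first bases lay between positions -60 and 41, counted from 1 at the first base transcribed. A match of letters is a description and does not show that a factor binds there.

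Shown are 4 promoters, each 5′ to 3′ along the gene, with CACGTG in capitals, or, in Polr1c, the related sequence on both strands. They are Apex1, the only one of the 9 with 3 matches and the gene with the smallest p between the groups (chr14:50924699-50924998, plus strand), Nop2, one of the genes most closely related to Myc across tumors (chr6:125131633-125131932, plus strand), Ltv1, whose single match begins at position 29 (chr10:13193088-13193387, minus strand), and Polr1c, which has CACGCG and CGCGTG side by side and no CACGTG (chr17:46247996-46248295, minus strand).
Apex1: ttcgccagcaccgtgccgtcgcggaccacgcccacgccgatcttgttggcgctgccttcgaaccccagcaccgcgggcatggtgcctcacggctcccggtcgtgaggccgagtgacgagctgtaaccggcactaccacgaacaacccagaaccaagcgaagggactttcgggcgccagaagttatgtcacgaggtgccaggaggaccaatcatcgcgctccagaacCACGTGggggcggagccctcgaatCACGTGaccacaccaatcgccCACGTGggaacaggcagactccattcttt
Nop2: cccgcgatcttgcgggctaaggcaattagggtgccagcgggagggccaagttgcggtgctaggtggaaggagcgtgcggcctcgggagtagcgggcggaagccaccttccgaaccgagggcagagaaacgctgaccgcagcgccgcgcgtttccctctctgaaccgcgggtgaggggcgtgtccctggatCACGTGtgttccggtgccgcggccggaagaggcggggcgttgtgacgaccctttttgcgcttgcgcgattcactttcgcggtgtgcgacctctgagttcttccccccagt
Ltv1: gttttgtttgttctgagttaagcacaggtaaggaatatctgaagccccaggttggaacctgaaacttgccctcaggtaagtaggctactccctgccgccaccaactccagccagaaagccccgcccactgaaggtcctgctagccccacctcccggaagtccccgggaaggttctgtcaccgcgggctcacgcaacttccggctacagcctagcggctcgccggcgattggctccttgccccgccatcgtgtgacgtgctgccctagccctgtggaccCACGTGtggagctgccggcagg
Polr1c: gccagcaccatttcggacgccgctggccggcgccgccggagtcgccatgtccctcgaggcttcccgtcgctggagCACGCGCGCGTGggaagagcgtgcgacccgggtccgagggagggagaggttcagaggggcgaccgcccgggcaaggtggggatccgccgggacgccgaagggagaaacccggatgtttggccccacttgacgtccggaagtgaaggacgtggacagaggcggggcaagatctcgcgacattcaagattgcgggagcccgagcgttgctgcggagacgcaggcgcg
The 3 matches of Apex1 begin at positions -24, 1 and 22. Gar1, Dkc1, Rrp9, Ncl and Gnl3 held none of these 6-base sequences in their windows.

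The levels of the 40 genes moved together from tumor to tumor. Over the 780 pairs of these genes, the median Pearson r of log2(FPKM + 0.1) across the 10 libraries was 0.87, against 0.01 over all pairs of genes tested. This is a description of 10 libraries that differ in group and cell make-up, and 99.1% of the pairs were positive. Taken as deviations from the group means, the median r was 0.81. Noc2l had the highest mean r with the other 39 genes, at 0.90, and Rcl1 the lowest, at 0.12, followed by Utp20 at 0.69.

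MYC/Twist1-HCC replicate 5 was the lowest of the 10 libraries for 37 of the 40 genes, while it was lowest for 17.9% of all genes tested. The exceptions were Polr1c and Rcl1, lowest in MYC-HCC library 4, and Noc3l, lowest in MYC/Twist1-HCC replicate 3. Within MYC/Twist1-HCC, replicate 4 was highest for 25 of the 40 genes, replicate 3 for 8 and replicate 2 for 7. Replicates 4 and 5, at the opposite ends of the group, had the 2 lowest levels of Twist1. Within MYC-HCC, library 4 was lowest for 38 genes, against 42.3% of all genes, and library 3 for 2. Library 2 was highest of all 10 for 22 genes, against 16.9% of all genes. The mean log2 level of the 40 genes was 4.66, 4.81, 4.99, 5.14 and 4.27 in MYC/Twist1-HCC replicates 1 to 5, and 5.39, 5.66, 5.42, 4.75 and 5.43 in MYC-HCC libraries 1 to 5. Library 4 thus lay among the MYC/Twist1-HCC tumors, and the other 4 MYC-HCC libraries lay above every MYC/Twist1-HCC tumor. The order was not particular to the 40 genes. Replicate 5 had the lowest and library 2 the highest mean log2 level for other ribosome biogenesis genes (3.34 and 4.43). The same held for proliferation genes (3.83 and 5.13) and other MYC targets (4.73 and 5.75), lists described below. For cytosolic ribosomal proteins the lowest was library 4 (3.71) and the highest library 3 (5.05).

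**Figure D1:**
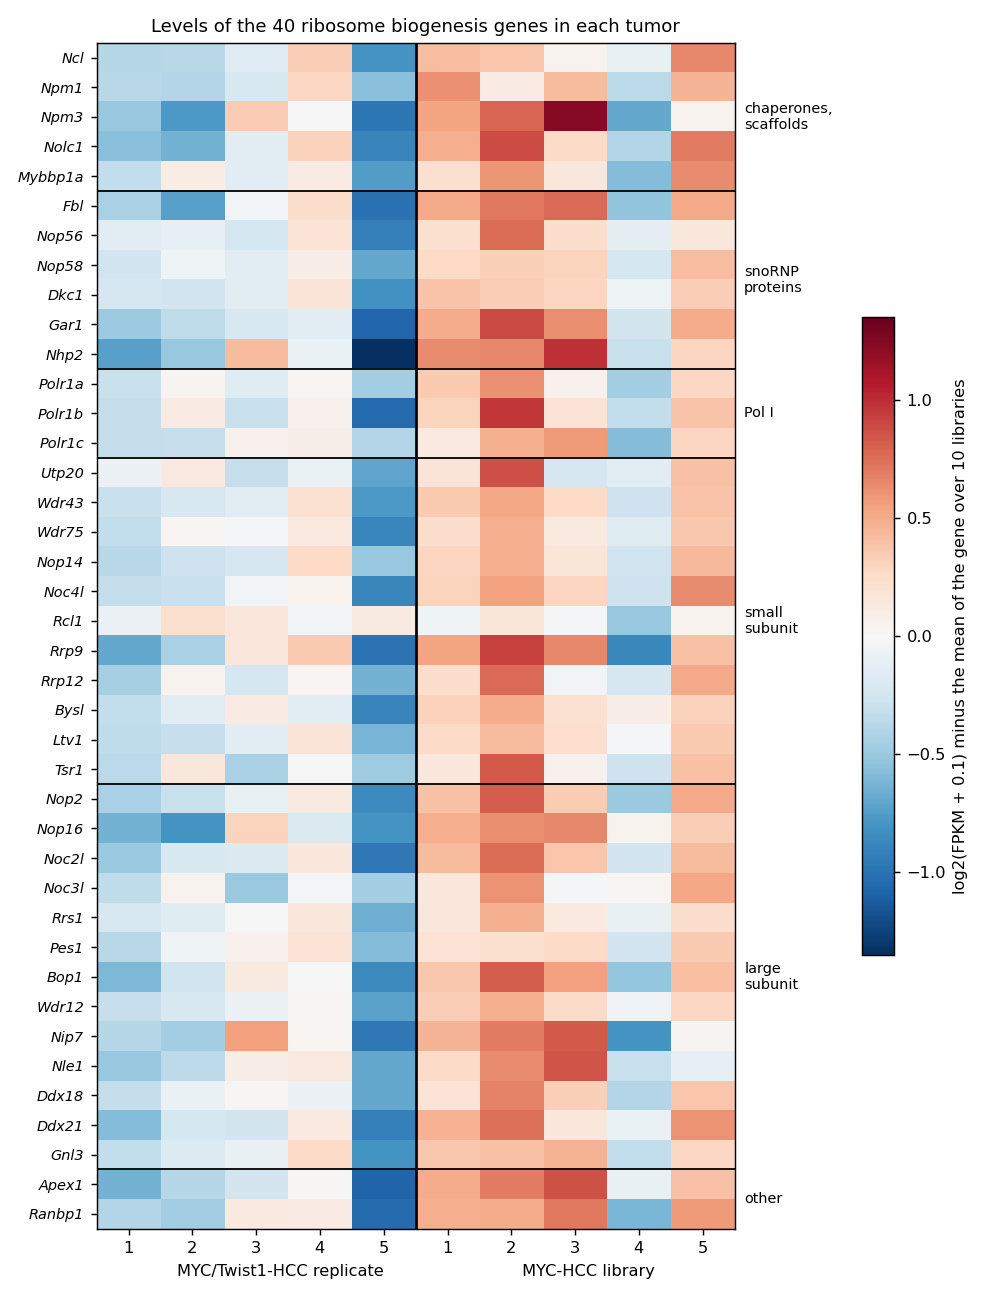
Level of each of the 40 genes (rows, by role) in each library (columns), as log2(FPKM + 0.1) minus the mean of that gene over the 10 libraries. Red is above and blue below that mean, with MYC/Twist1-HCC replicates on the left and MYC-HCC libraries on the right. Replicate 5 of MYC/Twist1-HCC is the lowest column for 37 genes, and MYC-HCC library 4 is blue for most rows, unlike the other 4 MYC-HCC libraries.

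For no gene did every MYC/Twist1-HCC tumor lie below every MYC-HCC tumor (0 of 40, background 1.67%). Without MYC-HCC library 4 this held for 24 of the 40 (background 9.64%), and without MYC/Twist1-HCC replicate 4 for 6 (background 2.87%), which were Ncl, Dkc1, Ltv1, Wdr12, Ddx21 and Apex1. With library quality weights in limma, by which library 4 had the lowest weight of the 10 at 0.184, 29 genes fell (background 12.1%) and 0 rose (background 8.30%). FPKM are scaled to gene length and reads, and the values that follow are levels in FPKM unless they are given as log2 differences, which are on the scale of log2(FPKM + 0.1) and are MYC/Twist1-HCC minus MYC-HCC.

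The 5 nucleolar chaperones and scaffolds had log2 differences of -0.78 to -0.41, and 1 of them, Nolc1, fell without library 4. Npm1 (nucleophosmin) and Ncl (nucleolin), abundant proteins of the nucleolus that bind ribosomal precursors, had the highest mean levels of the 40 genes. Npm1 was at 270.3, 268, 306, 428 and 237 FPKM in replicates 1 to 5 of MYC/Twist1-HCC, against 538, 380.2, 473, 274 and 482 FPKM in MYC-HCC libraries 1 to 5. The MYC/Twist1-HCC replicate 4 and MYC-HCC library 4 were the tumors that made the groups overlap (log2 difference -0.50, SE 0.23, limma adjusted p = 0.308, 0.0245 to 0.572 over the alternatives and 0.0632 without MYC-HCC library 4). Ncl stood at 192, 194, 222, 316 and 144 FPKM in MYC/Twist1-HCC and 334, 324, 258, 235 and 394 FPKM in MYC-HCC. Here replicate 4 alone of MYC/Twist1-HCC reached into the range of MYC-HCC (log2 difference -0.56, SE 0.23, limma adjusted p = 0.271, 0.0447 to 0.497 over the alternatives and 0.0882 without MYC-HCC library 4). Nolc1, a chaperone of snoRNPs, ranged over 57.7 to 133 FPKM in MYC/Twist1-HCC and 81.3 to 198 FPKM in MYC-HCC (log2 difference -0.78, and -0.97 without library 4, limma adjusted p = 0.240 and 0.0406, 0.0207 to 0.447 over the alternatives). Npm3, a smaller relative of nucleophosmin that has a named pseudogene, ranged over 9.08 to 22.9 and 11.1 to 42.4 FPKM in the same order of groups. Mybbp1a, a MYB-binding protein of the nucleolus, ranged over 55.1 to 100.2 FPKM in MYC/Twist1-HCC and 62.0 to 145 FPKM in MYC-HCC.

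All 6 snoRNP proteins were lower at an unadjusted p below 0.05, with a median log2 difference of -0.65. Gar1 and Nhp2, core proteins of the H/ACA particles that guide pseudouridylation, had the most negative log2 differences among them. Gar1 (chr3:129824912-129831396 of GRCm38, minus strand) was at 21.1, 23.2, 25.4, 26.8 and 14.0 FPKM in MYC/Twist1-HCC and at 41.9, 54.8, 45.7, 24.8 and 41.8 FPKM in MYC-HCC. Only library 4 of MYC-HCC lay within the range of MYC/Twist1-HCC, and the other 4 lay well above it (log2 difference -0.91, SE 0.24, limma adjusted p = 0.143, 0.00976 to 0.312 over the alternatives and 0.0216 without MYC-HCC library 4). Nhp2 stood at 95.8, 112, 215, 150.1 and 62.5 FPKM in MYC/Twist1-HCC and 249, 250.3, 316, 129.6 and 195 FPKM in MYC-HCC. Its range over all 10 libraries was the widest of the 40 genes, 5.05-fold, and MYC/Twist1-HCC replicates 3 and 4 overlapped with MYC-HCC library 4, replicate 3 with library 5 too (log2 difference -0.90, SE 0.34, limma adjusted p = 0.245, 0.0165 to 0.447 over the alternatives and 0.0555 without MYC-HCC library 4). Dkc1, the pseudouridine synthase dyskerin of the same particles, was at 32.9, 32.1, 34.6, 43.3 and 21.7 FPKM in MYC/Twist1-HCC and 50.1, 48.5, 47.0, 36.9 and 48.5 FPKM in MYC-HCC. MYC/Twist1-HCC replicate 4 lay above MYC-HCC library 4 and all others were apart (log2 difference -0.51, SE 0.18, limma adjusted p = 0.229, 0.0237 to 0.425 over the alternatives and 0.0602 without MYC-HCC library 4).

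Fbl (fibrillarin), the methyltransferase of the box C/D particles, had the lowest mean level of the 40 genes, 4.05 FPKM, which came to an estimated 160.2 reads in the lowest library. It was at 2.72, 2.20, 3.61, 4.41 and 1.80 FPKM in MYC/Twist1-HCC and 5.32, 6.17, 6.38, 2.53 and 5.34 FPKM in MYC-HCC, where library 4 lay within the range of MYC/Twist1-HCC and the other 4 above it. The difference passed the threshold without that library (log2 difference -0.79, SE 0.30, limma adjusted p = 0.252, 0.0187 to 0.466 over the alternatives and 0.0367 without MYC-HCC library 4). Nop56 and Nop58, which hold the box C/D particle together, ranged over 12.2 to 26.4 and 13.4 to 23.2 FPKM in MYC/Twist1-HCC, against 21.3 to 39.3 and 18.4 to 29.2 FPKM in MYC-HCC, and neither passed the threshold without library 4.

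The 3 subunits of RNA polymerase I had log2 differences of -0.60 to -0.34. Of these, 0 passed the threshold with all libraries (background 0% lower) or without library 4 (limma adjusted p = 0.0517 to 0.0749, background 4.77% lower). Without library 4, all 3 were lower in every MYC/Twist1-HCC tumor than in the other 4 MYC-HCC libraries (background 9.64%). The same held for 3 of 13 further genes of the polymerase I machinery (23.1%), a list described below. Polr1c, a subunit shared with RNA polymerase III, was at 19.6, 19.8, 25.6, 26.0 and 18.7 FPKM in MYC/Twist1-HCC and 26.9, 34.2, 36.6, 16.3 and 30.1 FPKM in MYC-HCC. MYC-HCC library 4 had the least of all 10 tumors, and the other 4 MYC-HCC libraries had more than any MYC/Twist1-HCC tumor (log2 difference -0.35, SE 0.22, limma adjusted p = 0.433, 0.0517 to 0.649 over the alternatives and 0.0517 without MYC-HCC library 4). Polr1a, the largest subunit, ranged over 11.98 to 16.9 FPKM in MYC/Twist1-HCC and 11.99 to 25.4 FPKM in MYC-HCC, and Polr1b, which completes the catalytic centre with it, over 7.67 to 17.3 and 12.7 to 31.1 FPKM in the same order of groups.

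Of the 11 factors of small subunit processing and assembly, 10 were lower and 6 of them at an unadjusted p below 0.05, with a median log2 difference of -0.50. Noc4l, whose yeast relative works with Nop14, was the 1 that fell without library 4, with ranges of 17.9 to 34.2 FPKM in MYC/Twist1-HCC and 27.1 to 51.6 FPKM in MYC-HCC (log2 difference -0.60, and -0.74 without library 4, limma adjusted p = 0.240 and 0.0429, 0.0208 to 0.442 over the alternatives). Bysl, a factor of 40S maturation, was at 13.4, 15.2, 18.2, 15.2 and 9.01 FPKM in MYC/Twist1-HCC and 20.96, 23.8, 19.4, 17.9 and 20.96 FPKM in MYC-HCC, and only replicate 3 of MYC/Twist1-HCC overlapped, with library 4 (log2 difference -0.57, SE 0.18, limma adjusted p = 0.1995, 0.0185 to 0.375 over the alternatives and 0.0641 without MYC-HCC library 4). Ltv1, which accompanies the 40S subunit on its way out of the nucleus, was at 20.7, 21.2, 23.9, 29.7 and 17.0 FPKM in MYC/Twist1-HCC and 31.4, 35.6, 30.9, 25.9 and 33.8 FPKM in MYC-HCC. Replicate 4 alone reached above MYC-HCC library 4 (log2 difference -0.50, SE 0.16, limma adjusted p = 0.201, 0.0248 to 0.380 over the alternatives and 0.0520 without MYC-HCC library 4).

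Rrp9, a protein of the U3 snoRNP that directs the first cuts of the precursor, was at 12.7, 15.1, 22.8, 26.3 and 10.2 FPKM in MYC/Twist1-HCC and 29.6, 39.1, 32.1, 11.2 and 27.0 FPKM in MYC-HCC. Library 4 had less of it than all but MYC/Twist1-HCC replicate 5, while the other 4 MYC-HCC libraries had more than every MYC/Twist1-HCC tumor (log2 difference -0.65, SE 0.36, limma adjusted p = 0.382, 0.0293 to 0.636 over the alternatives and 0.0525 without MYC-HCC library 4). Nop14, part of the small subunit processome, was at 33.6, 35.9, 37.3, 52.6 and 30.6 FPKM in MYC/Twist1-HCC and 53.4, 61.5, 49.0, 36.3 and 59.1 FPKM in MYC-HCC. Replicate 4 stood within the range of MYC-HCC and library 4 within that of MYC/Twist1-HCC (log2 difference -0.45, SE 0.19, limma adjusted p = 0.278, 0.0340 to 0.499 over the alternatives and 0.0552 without MYC-HCC library 4). Rcl1, which is known from yeast to take part in the maturation of the small subunit RNA, was at 67.5, 83.1, 79.3, 69.3 and 77.9 FPKM in MYC/Twist1-HCC and 68.7, 80.1, 70.2, 49.8 and 73.7 FPKM in MYC-HCC. The groups overlapped almost entirely and only library 4 was set apart, at the low end (log2 difference 0.15, SE 0.15, limma adjusted p = 0.628, 0.474 to 0.843 over the alternatives and 0.843 without MYC-HCC library 4). Levels of the other 5 (Utp20, Wdr43, Wdr75, Rrp12 and Tsr1, known from yeast as factors of the processome or of late 40S assembly) lay between 5.11 and 72.0 FPKM in MYC/Twist1-HCC and between 7.16 and 89.6 FPKM in MYC-HCC. Their log2 differences ran from -0.50 to -0.42, and none passed the threshold without library 4.

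All 13 factors of the large subunit were lower, 8 at an unadjusted p below 0.05, with a median log2 difference of -0.52, and 7 fell without library 4 (Nop2, Nop16, Noc2l, Bop1, Wdr12, Ddx18 and Ddx21). Nop16, a factor of 60S assembly (chr13:54584185-54590090 of GRCm38, minus strand), was at 37.9, 33.6, 72.7, 51.7 and 33.6 FPKM in MYC/Twist1-HCC and 83.2, 91.3, 92.4, 61.2 and 74.2 FPKM in MYC-HCC. Replicate 3 of MYC/Twist1-HCC was the highest of its group and the only one to overlap, with MYC-HCC library 4 (log2 difference -0.86, SE 0.23, limma adjusted p = 0.144, 0.0112 to 0.324 over the alternatives and 0.0370 without MYC-HCC library 4). Ddx21, an RNA helicase of the nucleolus, was at 54.1, 69.2, 68.8, 89.0 and 42.8 FPKM in MYC/Twist1-HCC and 113, 137, 90.0, 76.4 and 125 FPKM in MYC-HCC. Only replicate 4 of MYC/Twist1-HCC exceeded a MYC-HCC tumor, library 4 (log2 difference -0.75, SE 0.23, limma adjusted p = 0.178, 0.0160 to 0.355 over the alternatives and 0.0404 without MYC-HCC library 4). Nop2, which methylates the large subunit RNA (chr6:125131909-125144753 of GRCm38, plus strand), was at 44.3, 48.8, 56.0, 65.5 and 33.1 FPKM in MYC/Twist1-HCC and 79.3, 106, 76.5, 42.5 and 85.6 FPKM in MYC-HCC. Library 4 had less than all MYC/Twist1-HCC tumors but replicate 5, and the remaining MYC-HCC libraries had more than any of them (log2 difference -0.63, SE 0.26, limma adjusted p = 0.269, 0.0187 to 0.495 over the alternatives and 0.0367 without MYC-HCC library 4).

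Noc2l and Noc3l are relatives of yeast proteins that escort 60S precursors out of the nucleolus. Noc2l was at 36.7, 45.4, 45.6, 57.5 and 26.6 FPKM in MYC/Twist1-HCC and 70.0, 88.3, 67.5, 43.7 and 70.4 FPKM in MYC-HCC, with library 4 alone in the range of MYC/Twist1-HCC (log2 difference -0.69, SE 0.23, limma adjusted p = 0.217, 0.0164 to 0.408 over the alternatives and 0.03997 without MYC-HCC library 4). Noc3l was at 8.51, 11.2, 7.58, 10.6 and 7.84 FPKM in MYC/Twist1-HCC and 11.9, 16.5, 10.7, 10.98 and 15.6 FPKM in MYC-HCC. Replicate 2 of MYC/Twist1-HCC overlapped with libraries 3 and 4, so that library 4 did not stand apart for this gene (log2 difference -0.51, SE 0.18, limma adjusted p = 0.223, 0.0435 to 0.414 over the alternatives and 0.0675 without MYC-HCC library 4). Of the PeBoW complex, which is needed for processing of the large subunit RNA, Wdr12 was at 4.0, 4.25, 4.70, 5.06 and 2.97 FPKM in MYC/Twist1-HCC and 6.30, 6.99, 5.97, 4.8 and 6.04 FPKM in MYC-HCC. Replicate 4 lay just above library 4, the only overlap (log2 difference -0.52, SE 0.17, limma adjusted p = 0.203, 0.0181 to 0.384 over the alternatives and 0.0497 without MYC-HCC library 4). The 2 partners of Wdr12 in that complex had log2 differences of -0.64 for Bop1 and -0.31 for Pes1, the value nearest to 0 of the 13. Gnl3 (nucleostemin), a GTP-binding protein of the nucleolus, was at 101, 112, 119, 152 and 72.6 FPKM in MYC/Twist1-HCC and 163, 167, 176, 101 and 154 FPKM in MYC-HCC. Library 4, at 100.8 FPKM, was the second lowest of all tumors, and the other 4 MYC-HCC libraries were above the whole of MYC/Twist1-HCC (log2 difference -0.46, SE 0.22, limma adjusted p = 0.320, 0.0352 to 0.570 over the alternatives and 0.0723 without MYC-HCC library 4). The helicase Ddx18, the 60S factors Nip7, Nle1 and Rrs1, and Pes1 and Bop1 lay between 4.21 and 45.2 FPKM in MYC/Twist1-HCC and between 5.54 and 72.0 FPKM in MYC-HCC.

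Apex1 and Ranbp1 act outside ribosome assembly and both fell without library 4. Apex1, the endonuclease that cuts DNA at abasic sites in base excision repair (chr14:50924968-50927139 of GRCm38, plus strand), had the smallest p of the 40 genes. It was at 25.9, 30.9, 34.0, 40.9 and 19.1 FPKM in MYC/Twist1-HCC and 57.6, 65.6, 73.5, 37.8 and 53.3 FPKM in MYC-HCC. Library 4 lay just under replicate 4, and the other 4 MYC-HCC libraries were clearly above all MYC/Twist1-HCC tumors (log2 difference -0.94, SE 0.23, limma adjusted p = 0.136, 0.0105 to 0.301 over the alternatives and 0.0259 without MYC-HCC library 4). Its mean was 30.2 ± 8.22 FPKM in MYC/Twist1-HCC and 57.6 ± 13.5 FPKM in MYC-HCC (SD, n = 5 each). Ranbp1, a partner of the nuclear transport GTPase Ran, was at 141, 134, 203, 199 and 90.2 FPKM in MYC/Twist1-HCC and 261, 261, 302, 121 and 275 FPKM in MYC-HCC. Library 4 had less than all MYC/Twist1-HCC tumors but replicate 5 (log2 difference -0.66, SE 0.30, limma adjusted p = 0.304, 0.0191 to 0.553 over the alternatives and 0.0435 without MYC-HCC library 4).

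**Figure D2:**
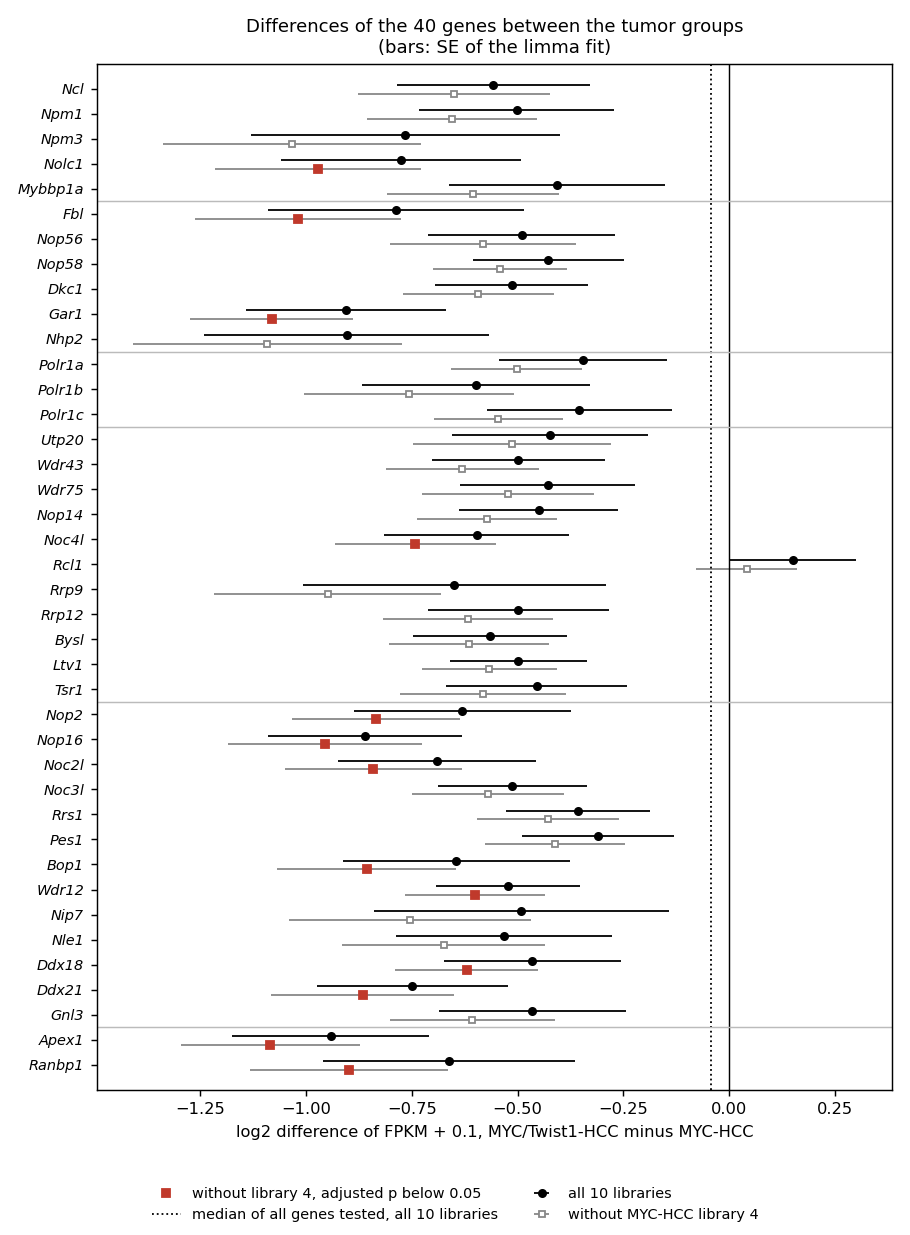
Log2 difference (MYC/Twist1-HCC minus MYC-HCC) of each of the 40 genes with its SE, for all 10 libraries (filled circles) and without MYC-HCC library 4 (squares, red where the adjusted p is below 0.05). Grey lines separate the roles, in the order chaperones, snoRNP proteins, polymerase I, small subunit, large subunit and others, and the dotted line is the median of all genes tested, -0.04. All but Rcl1 lie left of it, and 13 squares are red.

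Exons of another gene overlap those of 21 of the 40 genes, among them Apex1, Ncl, Gnl3 and Rrp9, and the sources used here do not say whether strand was counted, so reads of such neighbours cannot be told apart from those of these genes.

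The next comparison set the 40 genes against Myc itself. Myc (chr15:61985391-61990374 of GRCm38, plus strand) was at 233, 238, 252, 357 and 225 FPKM in replicates 1 to 5 of MYC/Twist1-HCC and at 303, 390.1, 332, 204 and 287 FPKM in MYC-HCC libraries 1 to 5. Library 4 had the least of all tumors, and replicate 4, which had the highest mean level of the 40 genes in MYC/Twist1-HCC, had more than 4 of the 5 MYC-HCC tumors. The groups overlapped (log2 difference -0.21, SE 0.21, limma adjusted p = 0.631, 0.222 to 0.853 over the alternatives). The row is that of the mouse gene, and the sources used here do not say how far reads of the MYC transgene are counted in it.

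All 40 genes had a positive Pearson r with Myc across the 10 libraries, from 0.33 for Rcl1 to 0.92 for Rrp9, with a median of 0.77, against 0.12 over the 12145 other genes tested. By permutation with adjustment over all of these, 3 of the 40 passed 0.05 by Pearson's r (background 2.53%) and 3 by Spearman's rho (background 1.57%). By Pearson's r, 0 of the 40 passed on linear FPKM (background 0.222%), with median-ratio scaling (background 0%) or with quantile normalization (background 0.0165%). At an unadjusted permutation p below 0.05, 35 of the 40 were positive by either measure, against backgrounds of 18.9% and 18.4%. Rrp9 had the closest relation (r = 0.92, permutation p = 0.000420, adjusted p = 0.0426, rho = 0.92, permutation p = 0.000650, adjusted p = 0.0474). Polr1c followed (r = 0.88, permutation p = 0.00159, adjusted p = 0.0463, rho = 0.89, permutation p = 0.00138, adjusted p = 0.0493). Nop2 passed by r alone (r = 0.87, permutation p = 0.00197, adjusted p = 0.0463, rho = 0.87, permutation p = 0.00235, adjusted p = 0.0532) and Gnl3 by rho alone (r = 0.85, permutation p = 0.00260, adjusted p = 0.0505, rho = 0.89, permutation p = 0.00133, adjusted p = 0.0493). Nop14 and Fbl completed the 5 with the largest r, at 0.87 and 0.86.

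Without the 2 libraries farthest from the median of Myc, MYC-HCC library 2 and MYC/Twist1-HCC replicate 4, the median r was 0.81, with 0.94 for Rrp9, 0.96 for Polr1c and 0.88 for Nop2, and 6 of the 40 passed by Pearson's r (background 4.11%) and 4 by Spearman's rho (background 3.31%). Without MYC-HCC library 4 the median r was 0.77 and 37 of 40 were positive at an unadjusted p below 0.05 (background 15.2%), but 0 of the 40 passed the adjusted threshold by Pearson's r, as did 0 of all genes in the positive direction. There Rrp9 had r = 0.89 and Rcl1 r = -0.21, the only negative value of the 40. Leaving out MYC/Twist1-HCC replicate 4 instead brought 19 of the 40 past the threshold by Pearson's r (background 8.51%) and 21 by Spearman's rho (background 8.85%), with 38 and 35 positive at an unadjusted p below 0.05 (backgrounds 20.9% and 20.4%).

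With 5 libraries a group no r was computed within a group, and limma was fitted with log2 Myc instead. With Myc alone in the fit, 21 of the 40 passed with a positive slope (background 7.30%). Myc and the group were then fitted together. All 40 slopes on Myc were positive, with a median of 0.89 log2 units per log2 unit of Myc, against 0.13 over all genes. Of the 40, 11 passed the adjusted threshold (background 2.85%) and 35 an unadjusted p below 0.05 (background 17.2%), led by Rrp9 with a slope of 1.87 (SE 0.31, limma adjusted p = 0.0174). Without MYC-HCC library 4 in that fit, 0 of the 40 passed (background 0%). There 16 were positive at an unadjusted p below 0.05 (background 3.40%) and the median slope was 0.80. The group term of the fit with all libraries, which gives the difference at equal Myc, had a median of -0.35 over the 40 genes, against -0.03 over all genes. For this term 0 of the 40 passed in limma (background 0% lower). At an unadjusted p below 0.05, 15 were lower (background 6.69%), with Apex1 at -0.72, Nop16 at -0.71 and Gar1 at -0.68. Without library 4 its median was -0.39, 0 passed (background 0% lower), and 10 were lower at an unadjusted p below 0.05 (background 5.57%).

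Other measures moved with Myc too. Alb, the albumin gene of hepatocytes, was at 6402, 7147, 5057, 1313 and 6118 FPKM in MYC/Twist1-HCC and 1195, 368, 851, 3737 and 2264 FPKM in MYC-HCC, and tumors with more Myc had less Alb (r = -0.90, permutation p = 0.000670, adjusted p = 0.0426, rho = -0.79, permutation p = 0.00898, adjusted p = 0.0739, and r = -0.85 without the 2 libraries farthest from the median of Myc). Max, the partner of MYC, had more transcript where Myc had more (r = 0.87, permutation p = 0.00232, adjusted p = 0.0482, rho = 0.78, permutation p = 0.0104, adjusted p = 0.0791, and r = 0.77 without the 2 farthest). For Mki67, a marker of cycling cells, the relation did not pass (r = 0.08, permutation p = 0.830, adjusted p = 0.898, rho = -0.02, permutation p = 0.973, adjusted p = 0.990, and r = -0.19 without the 2 farthest). Mki67 is 1 of 24 proliferation genes examined below and need not stand for the rest. The mean log2 level of the 24 was 4.67, 4.55, 4.77, 4.76 and 3.83 in MYC/Twist1-HCC replicates 1 to 5. In MYC-HCC libraries 1 to 5 it was 4.97, 5.13, 4.91, 4.21 and 5.03. The relation of these 24 genes to Myc as a list was not tested. The part of hepatocyte content in the relation of the 40 genes to Myc was not tested.

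**Figure D3:**
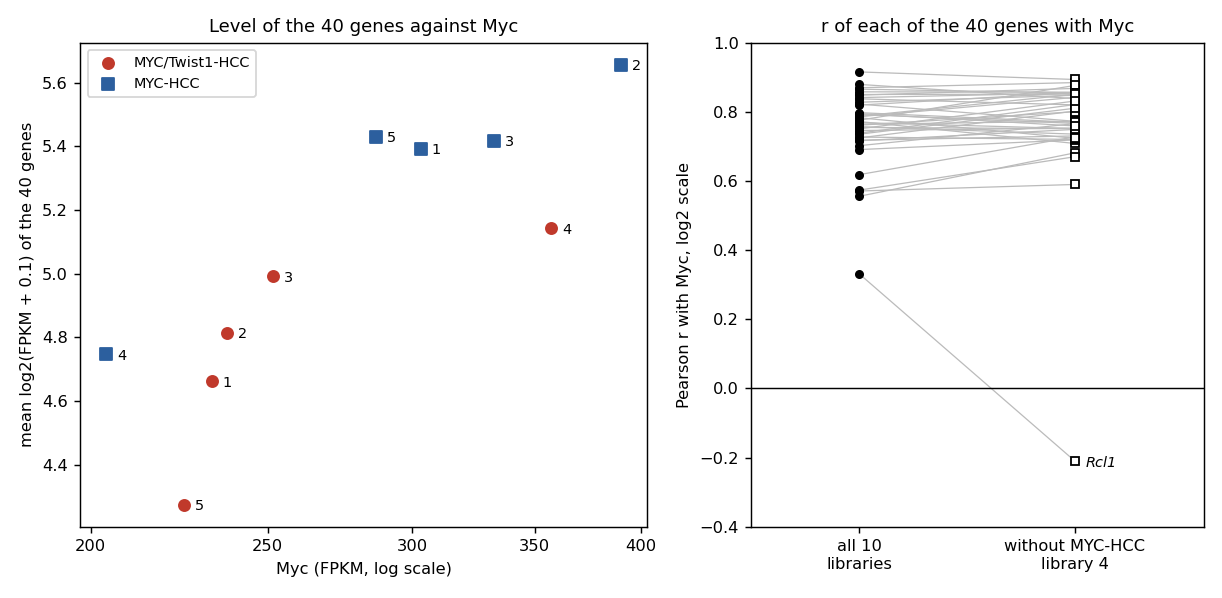
Left, mean log2(FPKM + 0.1) of the 40 genes (y) against Myc in FPKM on a log axis (x), with 1 point per library and its number, circles for MYC/Twist1-HCC and squares for MYC-HCC. Right, Pearson r of each of the 40 genes with Myc over all 10 libraries and without MYC-HCC library 4, joined by lines. The points climb with Myc in MYC/Twist1-HCC. In MYC-HCC, library 4 is lowest and library 2 highest on both axes, while libraries 1, 3 and 5 lie at nearly the same height (5.39, 5.42 and 5.43). Rcl1 is the only gene whose r drops below 0.

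Other genes of ribosome production were examined in the same fit, 124 genes tested from 5 lists. Of these, 120 had lower mean log2 levels in MYC/Twist1-HCC, with a median log2 difference of -0.43. Over all libraries 0 of the 124 passed limma's test. At an unadjusted p below 0.05, 42 were lower (background 8.51%) and 0 were higher (background 7.83%). Without MYC-HCC library 4, 94 were lower at that p (background 18.6%) and 34 fell (background 4.77%), and with quality weights 73 fell (background 12.1%). The count of 42 was 25, 38, 49, 59 and 22 without MYC/Twist1-HCC replicates 1 to 5 (backgrounds 5.40%, 7.45%, 9.71%, 9.22% and 5.48%). It was 26, 21, 30 and 28 without MYC-HCC libraries 1, 2, 3 and 5 (backgrounds 5.37%, 6.08%, 5.84% and 6.60%). Gtpbp4, a GTP-binding protein of 60S assembly, had the smallest p of these lists. It was at 9.33, 13.1, 11.9, 13.2 and 9.35 FPKM in MYC/Twist1-HCC and 20.99, 19.4, 16.4, 15.9 and 18.8 FPKM in MYC-HCC, with no overlap even with library 4 included (log2 difference -0.69, SE 0.15, limma adjusted p = 0.0980, 0.0101 to 0.248 over the alternatives and 0.0274 without MYC-HCC library 4). Wdr36, Pno1 and Sbds, factors of the small and large subunits, were the other 3 of the 124 without overlap, and they are named here after their values were seen. These 4 are 3.23% of the 124 (background 1.67%).

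By list, the median log2 difference was -0.41 for 13 further genes of the polymerase I machinery, where Ubtf, the factor that opens ribosomal gene chromatin, was at 27.9 ± 6.09 FPKM in MYC/Twist1-HCC and 41.1 ± 5.58 FPKM in MYC-HCC (SD, n = 5 each, log2 difference -0.57). It was -0.55 for 10 genes of snoRNPs and their assembly, with Znhit6, a factor of box C/D assembly, at -0.67. For 40 genes of the small subunit it was -0.41, with Utp6 and Nol11, parts of the processome, at -0.60 and -0.64. For 50 genes of the large subunit it was -0.43, with the helicase Ddx10 at -0.58 and Rrp15 at -0.59. The 11 genes of the RNA exosome, which trims precursor RNA, had a median of -0.44, with the nuclease Dis3 at -0.62. Without library 4, Ubtf, Znhit6, Utp6, Nol11, Ddx10, Rrp15 and Dis3 fell (limma adjusted p = 0.0416, 0.0439, 0.0324, 0.0381, 0.0383, 0.0428 and 0.0434, where the range over their alternatives was 0.0126 to 0.332 for Utp6).

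Lists set beside these had medians between -0.35 and -0.01. Over all genes tested, 8.51% were lower and 7.83% higher at an unadjusted p below 0.05. Without library 4, 18.6% of genes were lower at that p and 1511 of 11963 were higher. At the adjusted threshold, 4.77% of all genes then fell and 4.30% rose. Over 22 other textbook MYC targets the median was -0.35, with 6 lower at an unadjusted p below 0.05 and 0 past the threshold. Without library 4 its median was -0.48, and 13 of 21 were lower at that p, of which 3 fell. Hspd1, a chaperonin of mitochondria, was at 192, 200.1, 247, 256 and 144 FPKM in MYC/Twist1-HCC and 377, 361, 298, 277 and 352 FPKM in MYC-HCC, with no overlap (log2 difference -0.70, SE 0.19, limma adjusted p = 0.146, 0.0132 to 0.330 over the alternatives and 0.0406 without MYC-HCC library 4). Odc1, the first enzyme of polyamine synthesis, had means of 24.0 ± 7.84 FPKM in MYC/Twist1-HCC and 41.7 ± 14.2 FPKM in MYC-HCC (SD, n = 5 each, log2 difference -0.79). Over 24 proliferation genes the median was -0.34. At an unadjusted p below 0.05, 2 were lower, Cdc20 (-0.67) and Pcna (-0.57), a share of 8.33% that is near that over all genes. Without library 4 the median was -0.48, with 14 lower at that p, of which 2 fell. Over 76 proteins of the cytosolic ribosome the median was -0.27, with 6 lower (7.89%) and 4 higher at an unadjusted p below 0.05. Neither count exceeded the share over all genes. Without library 4 the ribosomal proteins had a median of -0.46, with 34 lower and 3 higher at that p, of which 10 fell and 2 rose. MYC and its partners, 10 genes, had a median of -0.01, where Max was at -0.28 and Mxd1, which competes for MAX, at 0.73. Whether these lists differ from the 40 genes was not tested.

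**Figure D4:**
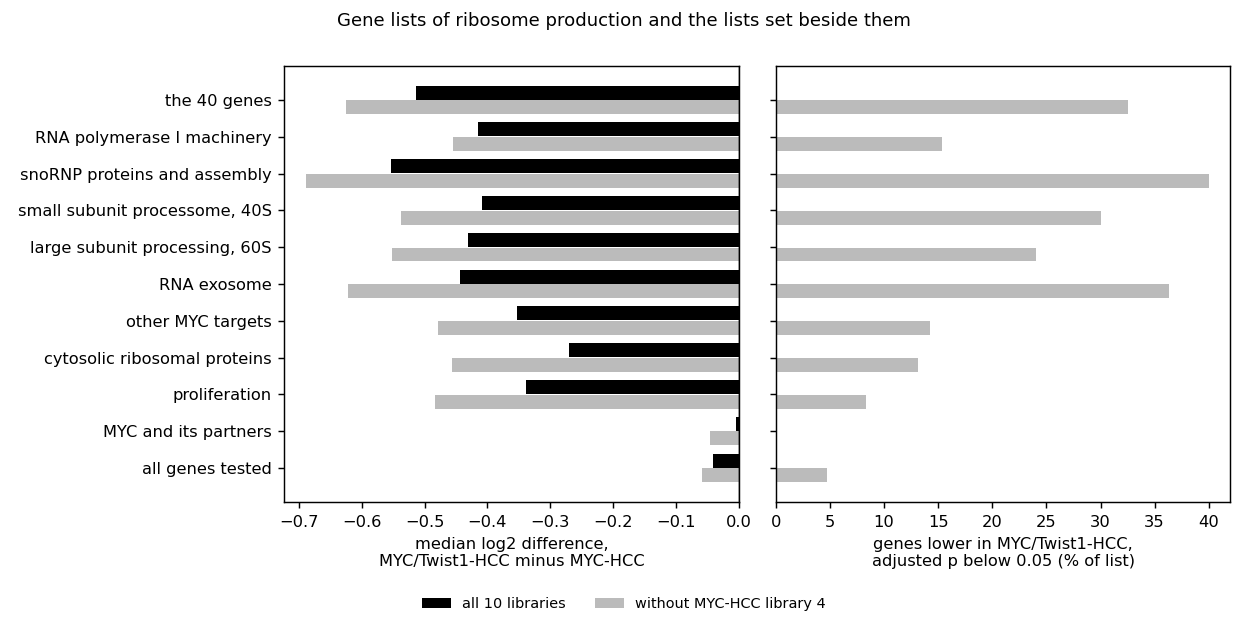
Left, median log2 difference (MYC/Twist1-HCC minus MYC-HCC) of the 40 genes, of 5 lists of other ribosome biogenesis genes, of 4 lists set beside them and of all genes tested. Right, the percent of each list lower at an adjusted p below 0.05 in MYC/Twist1-HCC, with black bars for all 10 libraries (0 in every list) and grey bars without MYC-HCC library 4. The 40 genes reach -0.51 and -0.63 on the left, and all genes tested -0.04 and -0.06.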

How the data were processed

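RNA sequencing of 10 liver tumors was examined. The authors' methods name single-end reads and RSEM, while the submitters' processing notes list featureCounts, STAR, DESeq2, Picard and Trimmomatic with mm10. The authors deposited FPKM with 2 decimals, and no counts were used here. To estimate depth, genes under 150 bp long (GENCODE vM21, GRCm38) were taken, whose FPKM came to whole reads within 0.1 of a read in 99.5% to 100% of cases. Of all values, 60.6% are 0.

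Genes reaching 0.5 FPKM in 5 or more libraries were tested as log2(FPKM + 0.1) with limma 3.58.1 in R 4.3.3 (moderated variances with a trend, two-sided, Benjamini-Hochberg over all 12146 genes, threshold 0.05). The added 0.1 understates changes of low genes. Relations to Myc were tested two-sided by permutation (100000 resamples, exact pairings when a library was left out) and adjusted over 12145 genes. The fits were checked on simulated data. Python 3.11.15, numpy 2.4.6, pandas 2.3.3, scipy 1.17.1 and matplotlib 3.10.9 were used.

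The 40 genes and the lists were chosen with earlier results of these data known. Values of every library are given for Myc, the 10 genes with the smallest p between the groups, the 5 with the highest mean and the 5 with the largest r with Myc, and from other lists up to 4 genes with the smallest p. Mki67, Rcl1, Wdr36, Pno1 and Sbds were named after their values were seen. Alternatives were an added 1 or 0.01, quality weights, no trend, quantile normalization, median-ratio scaling, a filter on a mean of 1 FPKM or none, and each library left out. Myc as a covariate of the group comparison and the counts of genes without overlap when a library is left out were added after seeing the data.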

Additional observations from a re-analysis of the deposited data

Results flagged for a closer look

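Each of the 40 genes and Myc was examined in both groups, 82 groups of 5 libraries, for a tumor far from the other 4 of its group (Dixon's test, critical value 0.71), and 6 were found. Chance gives about 1 in 20 such groups. In MYC-HCC, library 4 was the low tumor in 5 of them. It held 2.53 FPKM of Fbl, against 5.32 to 6.38 in the other 4, and 18.4 FPKM of Nop58, against 26.3 to 29.2. Dkc1 was at 36.9 FPKM, against 47.0 to 50.1, and Gnl3 at 100.8 FPKM, against 154 to 176. Ranbp1 was at 121 FPKM, against 261 to 302. In MYC/Twist1-HCC, replicate 4 held 357 FPKM of Myc, against 225 to 252 in the other 4.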

How the results depend on the processing

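Each of the 40 log2 differences was recomputed under 18 alternatives. Of the 720 values, 678 kept their direction and their side of the threshold, 42 passed it where the reported value did not, and 0 reversed, and 39 genes were negative in every setting. The 42 are the 13 genes that fell without MYC-HCC library 4 and the 29 that fell with quality weights. Leaving out 1 library gave 0 to 13 of the 40 lower, 11 to 38 at an unadjusted p below 0.05 (5.37% to 18.6% of all genes), and a median log2 difference of -0.63 to -0.41, and for Myc a log2 difference of -0.34 to -0.11. For the 124 other ribosome biogenesis genes it gave 0 to 34 lower. It gave 0 to 10 lower and 0 to 2 higher for cytosolic ribosomal proteins, 0 to 2 lower for proliferation and 0 to 3 lower for other MYC targets. All the highest counts came without MYC-HCC library 4, where 4.77% of all genes were lower and 4.30% higher at the adjusted threshold. Quality weights gave 29 of the 40 lower, 73 of the other ribosome biogenesis genes lower, 19 cytosolic ribosomal proteins lower and 2 higher, 5 proliferation genes and 7 other MYC targets lower, and 1 gene of MYC and its partners higher. Over all genes tested they gave 12.1% lower and 8.30% higher. The cause was not tested. With Myc as a covariate, an alternative chosen after seeing the data, 0 of the 40 passed, with or without library 4. The share of all genes that passed as lower was 0% in both fits. The count of genes without overlap was 0 to 24 when 1 library was left out, highest without MYC-HCC library 4 (background 9.64%).

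The count of genes related to Myc by Pearson's r was 3 of 40 (background 2.53%). It was 0 on linear FPKM (background 0.222%), with median-ratio scaling (background 0%) and with quantile normalization (background 0.0165%). With 1 library left out it was 0 to 19 (backgrounds 0% to 8.51%), highest without MYC/Twist1-HCC replicate 4. It was 6 (background 4.11%) without the 2 libraries farthest from the median of Myc. In limma it was 21 with Myc as a covariate (background 7.30%) and 11 with Myc and the group (background 2.85%). The cause was not tested. No paired analysis was possible because the MYC-HCC columns carry no replicate numbers. At the estimated depth, the gene with the fewest reads, Fbl, had 160.2 reads in its lowest library.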

Other observations

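Among the 76 cytosolic ribosomal proteins tested, a few went against the others. Rpl13 was at 28.4, 18.2, 40.1, 20.9 and 21.6 FPKM in replicates 1 to 5 of MYC/Twist1-HCC and at 8.77, 9.77, 12.3, 8.43 and 15.3 FPKM in MYC-HCC libraries 1 to 5, and Rps10 at 29.7, 29.9, 45.6, 38.1 and 36.4 FPKM in MYC/Twist1-HCC and 16.9, 16.0, 24.8, 13.2 and 21.6 FPKM in MYC-HCC. For both, every MYC/Twist1-HCC tumor lay above every MYC-HCC tumor (log2 difference 1.21, SE 0.24, limma adjusted p = 0.0910, 0.00976 to 0.214 over the alternatives and 0.0318 without MYC-HCC library 4 for Rpl13, and log2 difference 0.97, SE 0.19, limma adjusted p = 0.0910, 0.0115 to 0.214 over the alternatives and 0.0291 without MYC-HCC library 4 for Rps10). Rpl23a lay the other way without overlap, at 1.05, 1.09, 1.87, 2.13 and 1.12 FPKM in MYC/Twist1-HCC and 4.34, 4.68, 6.96, 2.20 and 2.84 FPKM in MYC-HCC (log2 difference -1.42, SE 0.32, limma adjusted p = 0.118, 0.00992 to 0.268 over the alternatives and 0.0229 without MYC-HCC library 4). Ribosomal protein genes have many near-identical copies in the mouse genome among which reads can be split, so these levels are uncertain.

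The 40 genes together held 0.590%, 0.728%, 0.729%, 0.922% and 0.421% of the summed FPKM in MYC/Twist1-HCC replicates 1 to 5, and 1.02%, 1.30%, 0.886%, 0.561% and 1.19% in MYC-HCC libraries 1 to 5.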
